A study of Mus musculus with 10 samples.

Results

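The replication-dependent histone genes were taken as the protein-coding genes of the GENCODE M21 annotation (mouse build mm10) whose names start with Hist1h, Hist2h, Hist3h or Hist4h. The rule used names only and gave 67 of 21938 protein-coding genes, with 6 H1, 18 H2A, 18 H2B, 12 H3 and 13 H4 genes. Of these, 54 belonged to the Hist1 set on chromosome 13, 10 to Hist2 on chromosome 3, 2 to Hist3 on chromosome 11 and 1, Hist4h4, to chromosome 6. The study profiled open chromatin by ATAC-seq, in which a transposase inserts adapters into accessible DNA, in Myc-CaP cells, a mouse prostate cancer line of male FVB/NJ origin. The 5 groups of 2 libraries each were untreated cells (Ctrl), cells given oxaliplatin at 2 µM (Oxali), cisplatin at 2 µM (Cispl) or IFNγ at 1000 pg (the labels give no volume, the study's methods give it per ml), and cells given Oxali + IFNγ, all for 48 h. The authors pooled both libraries of each group before they called peaks, so each group is 1 list of intervals. The lists hold no replicate spread, no test between groups could be made from them, and counts per library were not used here. A single line was used, so the values describe that line alone. The intervals printed beside ratios are exact 95% intervals and cover counting error only.

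Each nucleosome holds a core of H2A, H2B, H3 and H4, and H1 binds the linker DNA. The replication-dependent genes supply these proteins while DNA is copied in S phase. They lie in clusters, most lack introns, and their mRNAs end in a short stem-loop in place of a poly(A) tail. A single exon was annotated in 62 of the 67 genes (92.5%), against 1318 of 21938 protein-coding genes (6.01%). Oxaliplatin and cisplatin are platinum drugs that form adducts and crosslinks on DNA, and IFNγ is a cytokine released by activated lymphocytes.

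The stem-loop was searched in each gene and the 200 bases after it, in the RefSeq GRCm38 sequence, which is that of C57BL/6J and not of the line's strain. It was found in 63 of 67 genes in 6 forms, shown because they mark the family by sequence alone. The loop is in capitals.
Most H1, H2A, H2B and H3 genes (41 genes): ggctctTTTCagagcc
Hist1h1t, Hist1h2ba, Hist1h3c and others (9 genes): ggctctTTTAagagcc
Most H4 genes (8 genes): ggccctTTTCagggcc
Hist1h4i and Hist2h4: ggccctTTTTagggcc
Hist1h4b and Hist1h4j: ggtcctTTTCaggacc
Hist2h2ac: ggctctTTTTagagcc
The 8 genes of the third form were all H4 genes. No form was found for Hist1h2an, Hist1h3g, Hist1h4a or Hist2h2be, which says only that these letters are not in the windows. The last 1000 bases of each gene and the 200 after it were also searched alone. This used the stem-loop pattern, which allows more sequences than the 6 forms. It matched in 50 of 67 members (74.6%) and 8 of 21871 other protein-coding genes (0.0366%).

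Promoter sequence before the start site is shown for 8 members, 5′ to 3′ on the strand of the gene. Of these, 7 appear in the accessibility results and Hist1h2bc is shown for its octamer. Capitals mark the words searched on both strands. These were the octamer ATTTGCAT of Oct-1 sites, the TATA word TATAAA, the CCAAT word, the H1 box AAACACA and the H4 element GGTCCG, together with the E2F words TTTGGCGC and TTTCGCGC and the E-box CACGTG. Hist1h2ae is shown only up to the start of its neighbour Hist1h2bg.
Hist2h3c2 (chr3:96239128-96239377, − strand): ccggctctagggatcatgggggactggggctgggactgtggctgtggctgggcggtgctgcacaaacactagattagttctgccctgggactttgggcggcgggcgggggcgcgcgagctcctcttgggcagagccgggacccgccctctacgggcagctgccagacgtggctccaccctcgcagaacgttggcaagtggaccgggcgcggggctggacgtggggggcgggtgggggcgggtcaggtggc
Hist1h2bc (chr13:23683949-23684198, + strand): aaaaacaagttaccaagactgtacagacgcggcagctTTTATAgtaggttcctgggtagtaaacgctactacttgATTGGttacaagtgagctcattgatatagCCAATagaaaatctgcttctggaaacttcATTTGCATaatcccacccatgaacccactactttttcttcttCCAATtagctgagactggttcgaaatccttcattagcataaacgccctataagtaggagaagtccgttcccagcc
Hist1h2ae (chr13:23571221-23571395, − strand): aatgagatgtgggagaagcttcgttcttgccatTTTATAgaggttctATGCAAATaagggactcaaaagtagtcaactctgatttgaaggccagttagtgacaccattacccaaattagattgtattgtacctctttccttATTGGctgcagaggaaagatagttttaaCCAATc
Hist1h1c (chr13:23738558-23738807, + strand): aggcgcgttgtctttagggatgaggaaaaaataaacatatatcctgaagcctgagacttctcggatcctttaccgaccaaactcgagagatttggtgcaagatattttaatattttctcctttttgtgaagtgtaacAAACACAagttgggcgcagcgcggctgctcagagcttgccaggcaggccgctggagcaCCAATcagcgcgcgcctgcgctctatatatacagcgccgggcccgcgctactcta
Hist1h3b (chr13:23752017-23752266, + strand): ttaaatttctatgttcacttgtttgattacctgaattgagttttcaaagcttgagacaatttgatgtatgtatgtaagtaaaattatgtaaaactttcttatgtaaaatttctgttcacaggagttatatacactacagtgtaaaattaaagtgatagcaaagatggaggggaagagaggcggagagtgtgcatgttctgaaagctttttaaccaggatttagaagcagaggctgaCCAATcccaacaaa
Hist1h4i (chr13:22041363-22041612, − strand): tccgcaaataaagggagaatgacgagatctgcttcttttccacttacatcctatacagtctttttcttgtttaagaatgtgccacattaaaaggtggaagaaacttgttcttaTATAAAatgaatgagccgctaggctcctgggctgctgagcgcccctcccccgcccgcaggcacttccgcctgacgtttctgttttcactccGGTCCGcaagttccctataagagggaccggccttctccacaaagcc
Hist4h4 (chr6:136804416-136804665, − strand): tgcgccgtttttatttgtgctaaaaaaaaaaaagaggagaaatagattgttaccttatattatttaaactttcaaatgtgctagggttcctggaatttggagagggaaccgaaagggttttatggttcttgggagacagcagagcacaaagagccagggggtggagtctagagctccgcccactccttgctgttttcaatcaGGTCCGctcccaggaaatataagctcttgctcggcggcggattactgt
Hist1h2ba (chr13:23934157-23934406, − strand): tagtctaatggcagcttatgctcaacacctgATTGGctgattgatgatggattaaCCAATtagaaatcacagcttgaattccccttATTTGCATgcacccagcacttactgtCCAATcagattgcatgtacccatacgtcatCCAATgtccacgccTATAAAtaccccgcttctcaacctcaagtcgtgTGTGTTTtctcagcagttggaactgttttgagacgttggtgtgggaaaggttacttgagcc
Octamers lay 117 to 110 bases before the start of Hist1h2bc and 164 to 157 bases before that of Hist1h2ba, and on the opposite strand 128 to 121 bases before that of Hist1h2ae. The H4 element lay 46 to 41 bases before the start of Hist1h4i and 48 to 43 bases before that of Hist4h4. The sequence shown for Hist2h3c2 held none of the words.

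The counts of some words differed between classes, while H2A and H2B genes were alike. Within 250 bases before and 50 after the start, the octamer was found in 7 of 18 H2A and 8 of 18 H2B genes and in no H1, H3 or H4 gene, which is 22.4% of members against 1.57% of all protein-coding genes. GGTCCG was found in 12 of 13 H4 genes (members 22.4%, all genes 9.60%), and AAACACA in 4 of 6 H1 genes (members 13.4%, all genes 6.40%). CCAAT was found in 18 of 18 H2A, 18 of 18 H2B and 11 of 12 H3 genes but in 4 of 13 H4 genes (members 83.6%, all genes 39.0%). TATAAA was in 55.2% of members and 12.6% of all genes. An E2F word was in 5 H2A and 4 H2B genes (members 13.4%, all genes 1.02%). CACGTG, the core of MYC sites, was in 0 of 67 members and in 7.75% of all genes. The median GC content of the windows was 45.3% in members and 55.0% in all genes, and a match of letters is no evidence that a factor was bound.

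A gene was called open in a list where at least 1 interval overlapped 1 kb on either side of its annotated 5′ end. By that measure 65 of 67 members were open in every list (97.0%, 95% Wilson interval 89.8 to 99.2%). The Wilson interval takes members as independent, which they are not, since neighbours share regions. The share of all protein-coding genes called was 54.9% in Ctrl, 56.8% after Oxali, 57.6% after Cispl, 54.5% after IFNγ and 58.0% after Oxali + IFNγ. All 65 were also called from intervals with a q-value of at most 0.01. The start base itself lay in an interval for 61 of 67 members (91.0%) in every list, against 48.0, 49.0, 49.6, 47.8 and 49.9% of all genes. Within the 1 kb window no member was gained or lost under any treatment.

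**Figure D1:**
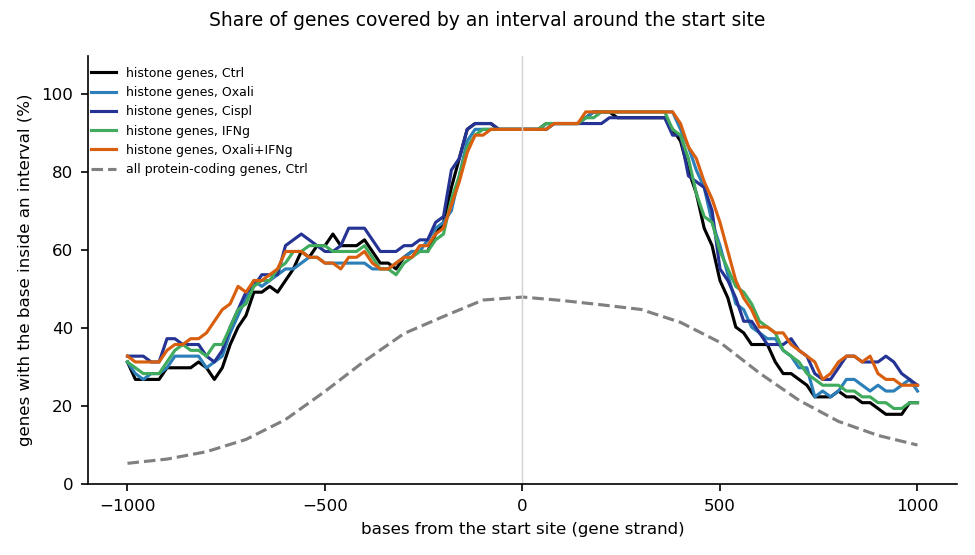
Percent of genes with the base inside an interval (y axis) against distance from the start in bases (x axis, gene direction to the right), for members in the 5 lists and all protein-coding genes in Ctrl. In Ctrl, members reach 95.5% at 200 bases after the start, where all genes are at 46.0%.

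Open chromatin extended over most of the length of the median member, and most members are short genes. In Ctrl the share of members covered was 67.2% at 200 bases before the start, 91.0% at the start and 95.5% at 200 bases after it, while the share of all genes was 43.0, 48.0 and 46.0%. The interval over a start reached a median of 584 bases before and 520 bases after it in Ctrl. The median share of the gene length covered was 87.5% in Ctrl, 91.0% after Oxali, 89.5% after Cispl, 88.8% after IFNγ and 95.2% after Oxali + IFNγ. The members that lay wholly inside intervals numbered 22, 24, 24, 26 and 30 in the same order. Neither measure was taken over all genes, and a gene shorter than an interval can lie wholly inside it. Long members were covered less, with 5.16% of Hist1h2be, 15.0% of Hist1h2bc and 23.5% of Hist1h1d in Ctrl. Intervals were wider than usual only by a small amount, with a median of 1222 bases for members and 1090 for all genes in Ctrl.

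Neighbouring histone genes shared regions. There were 13 head-to-head pairs, 12 of them of an H2A and an H2B gene, with 175 to 659 bases between start sites (median 267), and both starts of 11 pairs lay in 1 Ctrl interval. The 61 covered starts therefore lay in 46 distinct intervals in Ctrl, and the highest interval near each of the 65 called members came from 40 distinct intervals. Values for members of a pair are 1 measurement, and the members are not independent of each other.

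The 2 uncalled members were H1 genes. Hist1h1d (chr13:23553262-23560686, + strand) encodes a somatic H1, and the interval nearest to its annotated start lay 1375 bases before it in Ctrl, outside the window. A separate interval inside the gene (chr13:23554893-23556640 in Ctrl) had its summit 1997 bases past that start. The highest pileup inside the gene was 962 in Ctrl, 1159 after Oxali, 868 after Cispl, 676 after IFNγ and 1230 after Oxali + IFNγ, values like those at called members. Hist1h1t (chr13:23695814-23696725, + strand) encodes the testis H1 variant and had no interval in the gene in any list, with the nearest 1649 to 1906 bases from its start. The annotated 5′ end of Hist1h2be (chr13:23583670-23621124, − strand) lies inside the Hist1h1e gene, within the interval that also covers the Hist1h1e start, so its call and its pileups of 1476, 1177, 900, 838 and 1017 are those of that shared interval.

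The height of a region was recovered as its pileup, the number of reads extended to 150 bases that overlap the summit, and divided by the background the peak caller used for the whole genome in that list. This level is a fold over the genome-wide mean. The background was 12.1 in Ctrl, 11.3 after Oxali, 13.8 after Cispl, 9.62 after IFNγ and 12.9 after Oxali + IFNγ. The median level of the 65 called members was 120 in Ctrl, 102 after Oxali, 70.0 after Cispl, 95.1 after IFNγ and 83.2 after Oxali + IFNγ. The medians over all called protein-coding genes were 93.6, 65.9, 56.7, 61.7 and 46.8. Members above the all-gene median numbered 50, 61, 52, 56 and 61 of 65. The interquartile range of members was 94.7 to 137 in Ctrl and 94.0 to 108 after Oxali. In these bulk libraries, fewer cells with an open site and a less open site in each cell cannot be told apart.

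By class, H2A, H2B and H3 genes stood highest in Ctrl, with median levels of 122, 122 and 119, and H4 (94.7) and H1 (93.0) lower. In Oxali the classes were closer, at 105 for H2A, 103 for H2B, 99.1 for H3, 96.2 for H4 and 87.2 for H1. In Cispl they were 78.7, 72.0, 69.8, 66.0 and 51.4 in that order, after IFNγ 99.7, 99.0, 87.6, 71.2 and 68.9, and after Oxali + IFNγ 85.5, 83.7, 80.2, 80.7 and 70.9. H1, with 4 of 6 genes called, was lowest in all 5 lists. The 10 Hist2 genes had a median level of 194 in Ctrl and the called Hist1 genes 111, and Hist2 stayed above Hist1 after Oxali (143 and 99.5), Cispl (102 and 68.1), IFNγ (141 and 87.1) and Oxali + IFNγ (115 and 80.8).

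**Figure D2:**
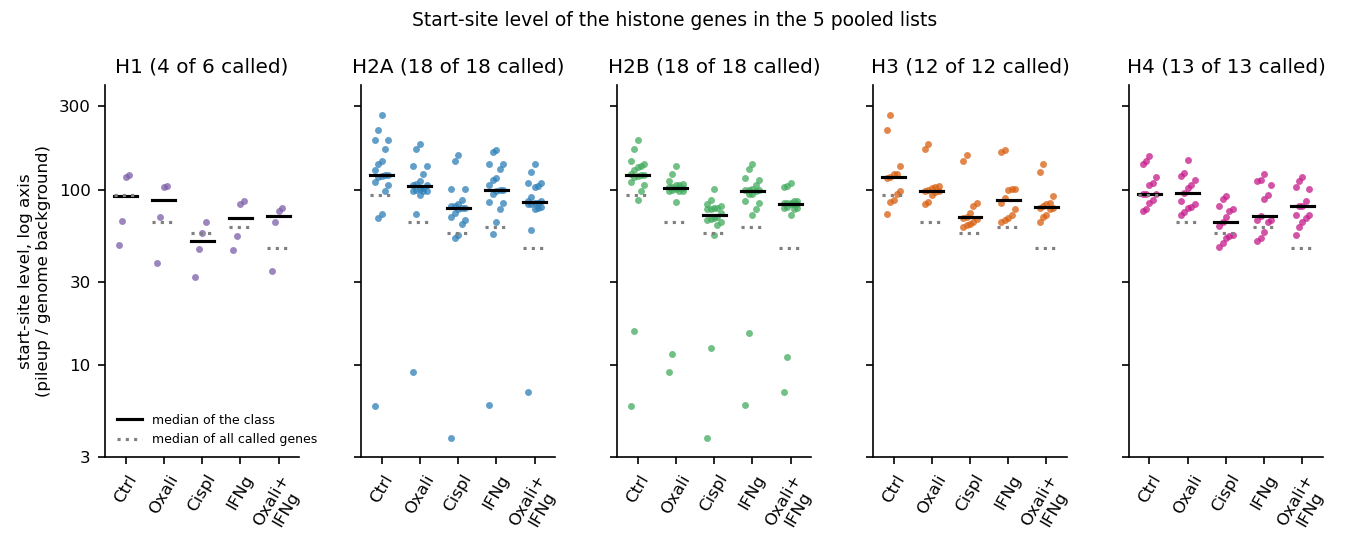
Level of each called member (pileup over the genome-wide background of its list, y axis, log scale) in the 5 lists (x axis), with a panel per histone class. Black lines mark the class median and dotted lines the median of all called genes. Every class median lies above the dotted line after Oxali, IFNγ and Oxali + IFNγ. The H1 median lies below it in Ctrl (93.0 against 93.6) and after Cispl (51.4 against 56.7).

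The highest region in Ctrl covered Hist2h3c2, an H3 gene (chr3:96238108-96239127, − strand), and its neighbour Hist2h2aa2. Its pileup was 3234 in Ctrl, 2069 after Oxali, 2180 after Cispl, 1583 after IFNγ and 1819 after Oxali + IFNγ. The nearby copy pair Hist2h3c1 and Hist2h2aa1 had pileups of 2666, 1925, 2015, 1622 and 1634. A further Hist2 region, shared by Hist2h2ab, Hist2h2ac and Hist2h2be, had 2356, 1547, 1398, 1355 and 1418. Ctrl was highest at all 3 regions, but these were chosen for their high Ctrl level, which favours that order. Of the 50-base words around the starts of Hist2h3c2 and Hist2h3c1, 77.6 and 78.5% occur elsewhere in the genome, and the authors kept only well-mapped reads, so these pileups are uncertain.

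At the other end stood the testis pair and Hist3h2ba. Hist1h2ba (chr13:23933773-23934156, − strand), which encodes the testis H2B variant, shared a region with Hist1h2aa, the testis H2A variant, and its pileup was 71 in Ctrl, 104 after Oxali, 53 after Cispl, 57 after IFNγ and 91 after Oxali + IFNγ. Hist3h2ba (chr11:58948920-58949533, + strand), an H2B gene, had 191, 131, 174, 147 and 144. Next lowest in Ctrl were 2 somatic H1 genes. The interval over the start of Hist1h1a had 517, 432, 437, 306 and 444, while its highest interval within 1 kb in Ctrl (589) and after IFNγ (436) was another region, shared with Hist1h3a. Hist1h1b had 811, 790, 631, 525 and 844, and its level was 66.8, 70.1, 45.8, 54.6 and 65.4. On the level scale the testis pair and Hist1h1b were highest after Oxali, and Hist3h2ba and Hist1h1a were highest in Ctrl.

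The comparison of each treatment with Ctrl asked how far the openness of these starts moved beside that of other genes. All 4 comparisons share the same Ctrl list. On the depth-scaled level the median ratio of members to Ctrl was 0.859 after Oxali (range 0.689 to 1.58), 0.641 after Cispl (0.425 to 0.870), 0.769 after IFNγ (0.618 to 1.01) and 0.701 after Oxali + IFNγ (0.529 to 1.21). Over all protein-coding genes called in both lists it was 0.728, 0.636, 0.682 and 0.540. Thus members were lower than in Ctrl on the depth scale, but once the all-gene median was set to 1 the member medians were 1.18, 1.01, 1.13 and 1.30, on the other side of 1. Members above the all-gene median ratio numbered 56 after Oxali, 33 after Cispl, 61 after IFNγ and 63 after Oxali + IFNγ of 65. The direction against Ctrl therefore depends on the scaling. A ratio compared the highest interval near a start in each list, and these did not overlap for 4 members after Oxali and after Oxali + IFNγ (Hist1h1a, Hist1h2bh, Hist1h3f and Hist1h4n), 2 after Cispl and 2 after IFNγ. Without those members the median ratios were 0.859, 0.641, 0.768 and 0.694.

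**Figure D3:**
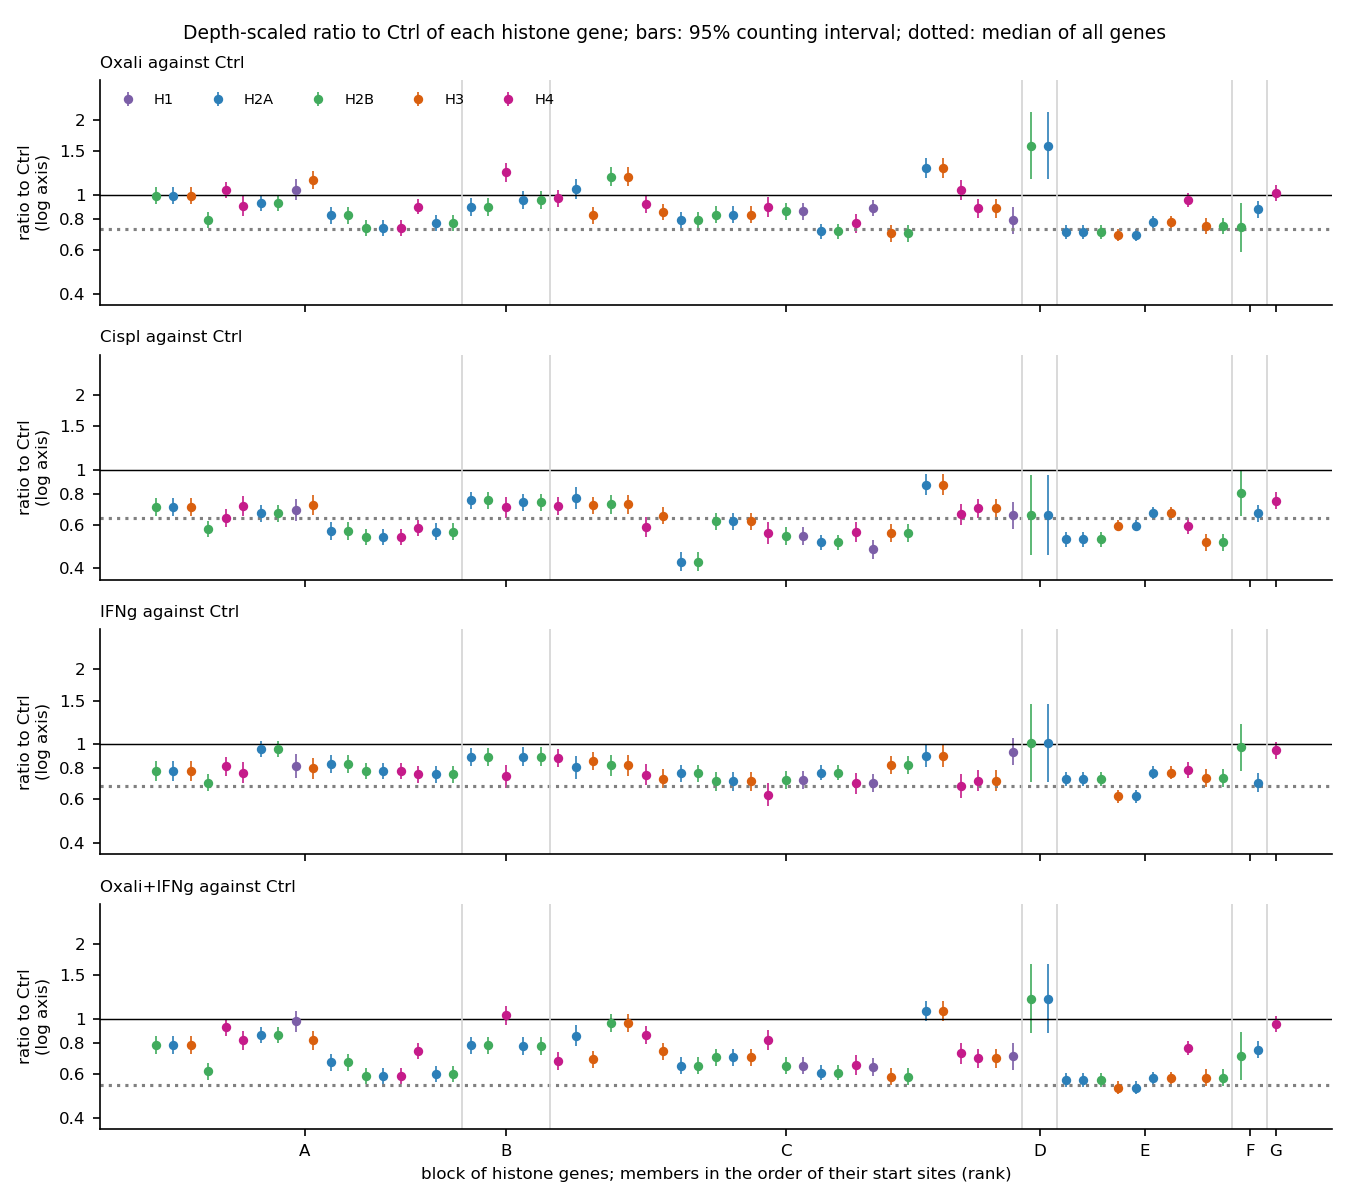
Ratio of treated to Ctrl level of each called member (y axis, log scale) in the order of start sites (x axis), with a panel per treatment, 95% counting intervals as bars and the all-gene median dotted. Letters mark blocks of neighbouring genes (A to D Hist1, E Hist2, F Hist3, G Hist4h4), and most members sit above the dotted line after Oxali, IFNγ and Oxali + IFNγ but on both sides of it after Cispl.

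The counts past a fold of 1.5 on the depth scale were read against the same share over all genes. In Oxali 2 of 65 members were higher (all genes 4.68%) and 0 lower (32.3%). In Cispl 0 were higher (4.43%) and 41 lower (58.1%). In IFNγ 0 were higher (0.486%) and 3 lower (44.8%). In Oxali + IFNγ 0 were higher (5.31%) and 25 lower (70.8%). The shares lower after Oxali, IFNγ and Oxali + IFNγ were thus below the background, and that after Cispl was near it.

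With the all-gene median at 1, 8 members were higher past the fold after Oxali (all genes 11.7%), 0 after Cispl (13.2%), 0 after IFNγ (4.38%) and 17 after Oxali + IFNγ (19.0%). The share after Oxali was close to the background. None was lower in any of the 4, where all genes gave 0.719, 0.866, 2.37 and 6.89%. The 17 after Oxali + IFNγ were all Hist1 genes but for Hist4h4, and the 8 after Oxali were Hist1h2aa, Hist1h2ab, Hist1h2ba, Hist1h2bh, Hist1h3b, Hist1h3f, Hist1h3i and Hist1h4i. Both counts include Hist1h2bh and Hist1h3f, whose values in the lists came from different regions, and were 6 and 15 without such members. The interval over the start of Hist1h2bh itself went from 1068 in Ctrl to 761 after Oxali, a ratio of 0.767 and of 1.07 relative to all genes.

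Members were also set beside genes of like height, since high and low regions could move differently. Of the other genes, 2815 had a Ctrl level within the interquartile range of the members (94.7 to 137), and their median ratio was 0.690 after Oxali, 0.605 after Cispl, 0.660 after IFNγ and 0.494 after Oxali + IFNγ. The 33 members in that range had medians of 0.859, 0.641, 0.781 and 0.694. The members were above these genes under every treatment, with the widest difference after Oxali + IFNγ and the smallest after Cispl.

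By class, H4 had the highest median ratio after Oxali (0.918) and after Oxali + IFNγ (0.763). The H1, H2A, H2B and H3 medians were 0.872, 0.830, 0.809 and 0.843 after Oxali and 0.679, 0.686, 0.659 and 0.698 after Oxali + IFNγ. In Cispl H2B (0.570) and H1 (0.596) were lowest, with H2A at 0.639, H4 at 0.641 and H3 at 0.682. In IFNγ the 5 classes lay between 0.758 (H4) and 0.781 (H2B). For the interval over the start base alone, which separates some neighbours, H4 relative to all genes was 1.35 after Oxali and 1.57 after Oxali + IFNγ, with 3 and 8 of 13 past the fold, against 8.67 and 14.7% of all genes by the same measure. The H3 genes were next by this measure, at 1.33 and 1.42 with 4 and 5 of 11 past the fold. Their medians were the highest of the classes after Cispl (1.15) and after IFNγ (1.19). The lowest such medians were those of H2B, 1.11 after Oxali, 0.902 after Cispl and 1.24 after Oxali + IFNγ, except after IFNγ, where H1 was at 1.08. The H4 counts past the fold after Oxali and after Oxali + IFNγ include Hist1h4m (1.91 and 2.18) and Hist1h4n (1.52 and 1.72). Most of the sequence words around the starts of these genes occur elsewhere in the genome (93.0 and 92.0%), so their values are uncertain. Hist2 genes had lower ratios than Hist1 genes in each comparison, with 0.727 and 0.888 after Oxali, 0.557 and 0.653 after Cispl, 0.729 and 0.781 after IFNγ, and 0.571 and 0.718 after Oxali + IFNγ.

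**Figure D4:**
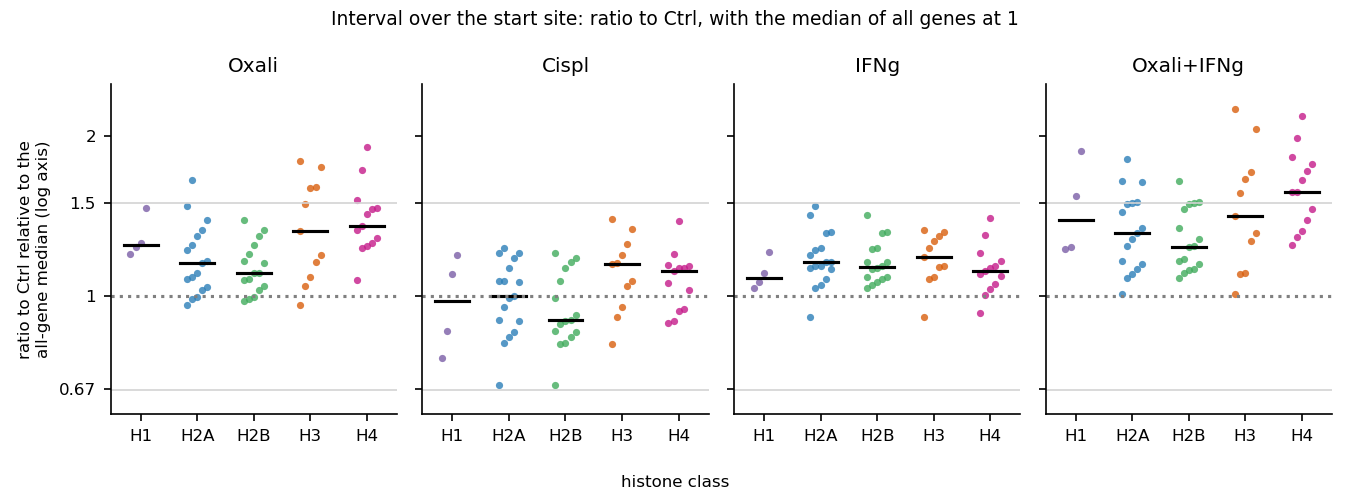
Ratio to Ctrl of the interval over each start base, with the median of all genes set to 1 (y axis, log scale), by histone class (x axis) in a panel per treatment. Black lines mark class medians, dotted lines 1 and grey lines the 1.5-fold limits, and the H4 median after Oxali + IFNγ lies at 1.57.

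Single members spread around these medians. Hist1h4i, an H4 gene (chr13:22040636-22041362, − strand) with the H4 element printed above, had pileups of 946 in Ctrl, 1084 after Oxali, 755 after Cispl, 557 after IFNγ and 1041 after Oxali + IFNγ. Its level was 77.9, 96.2, 54.9, 57.9 and 80.7. The ratio to Ctrl was 1.23 after Oxali (1.13 to 1.35), 0.704 after Cispl (0.639 to 0.775), 0.743 after IFNγ (0.668 to 0.826) and 1.04 after Oxali + IFNγ (0.947 to 1.13). On the depth scale Oxali thus stood above Ctrl, and Cispl and IFNγ below it, beyond counting error, but with the all-gene median at 1 the Cispl and IFNγ ratios were 1.11 and 1.09.

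Hist1h3b, an H3 gene (chr13:23752267-23752886, + strand), shared its highest region with Hist1h2ab. That region had pileups of 890 in Ctrl, 1060 after Oxali, 878 after Cispl, 635 after IFNγ and 1019 after Oxali + IFNγ. The ratio was 1.28 after Oxali (1.17 to 1.40) and 0.870 after Cispl (0.792 to 0.956), the highest ratio of any member after Cispl. IFNγ gave 0.900 (0.812 to 0.998) and Oxali + IFNγ 1.08 (0.983 to 1.18). The testis pair Hist1h2ba and Hist1h2aa had the highest ratio after Oxali, 1.58 (1.16 to 2.16), from its low pileups, and 1.01 after IFNγ (0.702 to 1.46). Hist3h2ba was next after Cispl, at 0.804 (0.651 to 0.992), and after IFNγ, at 0.971 (0.778 to 1.21).

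The lowest ratio after Cispl was that of Hist1h2ae, an H2A gene (chr13:23570517-23571220, − strand), and its partner Hist1h2bg. Their shared region had pileups of 1584 in Ctrl, 1164 after Oxali, 764 after Cispl, 958 after IFNγ and 1093 after Oxali + IFNγ. The ratio was 0.425 after Cispl (0.390 to 0.464) but 0.791 after Oxali (0.733 to 0.854). The linker histone gene Hist1h1c (chr13:23738808-23740367, + strand) had 1448, 1191, 783, 801 and 987, and its ratio after Cispl was 0.477 (0.437 to 0.521). For both genes Cispl gave the lowest level of the 5 lists.

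Hist2h3c2 had the lowest ratios after Oxali, 0.689 (0.652 to 0.728), after IFNγ, 0.618 (0.581 to 0.656), and after Oxali + IFNγ, 0.529 (0.499 to 0.561). Hist1h4d, an H4 gene, was next after IFNγ with pileups of 1029 in Ctrl and 511 after IFNγ and a ratio of 0.627 (0.562 to 0.697). The region of Hist2h2ab was next after Oxali + IFNγ at 0.566 (0.530 to 0.605).

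Hist1h2bb and Hist1h3c, an H2B and an H3 gene, came next after Oxali with a ratio of 0.699 (0.644 to 0.759). Their highest shared region had pileups of 1491 in Ctrl, 968 after Oxali, 937 after Cispl, 977 after IFNγ and 929 after Oxali + IFNγ. The interval over the start of Hist1h3c itself had 639, 742, 541, 443 and 798 and a ratio of 1.25 after Oxali, so its direction after Oxali differed between the regions near its start. Hist4h4, the only member on chromosome 6 (chr6:136801553-136804415, − strand), had pileups of 1438, 1360, 1220, 1078 and 1459. Its ratios were 1.02 after Oxali, 0.748 after Cispl, 0.946 after IFNγ and 0.954 after Oxali + IFNγ.

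Members were also split by how much of their window occurs elsewhere in the genome, as at most 5% of their 50-base words (5 called), 5 to 20% (27), 20 to 50% (23) and over 50% (10). In that order the median ratios were 0.950, 0.886, 0.854 and 0.752 after Oxali and 0.763, 0.709, 0.740 and 0.589 after Oxali + IFNγ. After Cispl they were 0.654, 0.658, 0.652 and 0.571, with only the last class apart, and after IFNγ 0.817, 0.743, 0.781 and 0.763, with no order. The part of repeated sequence in the lower ratios was not tested.

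Oxaliplatin and cisplatin were given at the same dose and for the same time, so their lists were also compared directly, as 1 pair of compounds. Oxaliplatin holds a diaminocyclohexane ligand and an oxalate leaving group where cisplatin holds ammine ligands and chlorides. The ratio of the level after Oxali to that after Cispl had a median of 1.38 over 65 members and 1.15 over 12235 genes called in both. Past the fold of 1.5, 18 members were higher after Oxali (all genes 2.86%) and 0 were lower (1.41%). Of the 18, Hist1h2bh and Hist1h3f compared different regions in the lists. With the all-gene median at 1 the member median was 1.20, 64 members lay above 1 and 6 passed the fold (all genes 1.01%). The lists hold no replicate spread for this difference either.

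The class medians of the Oxali to Cispl ratio were 1.56 for H1, 1.54 for H4, 1.38 for H2B, 1.37 for H2A and 1.33 for H3, and 3 of 4 H1 and 7 of 13 H4 genes passed the fold. With the all-gene median set at 1, 1 H1 and 1 H4 gene passed it. The highest ratio was 2.40 (1.71 to 3.40) at the testis pair Hist1h2ba and Hist1h2aa, from 104 and 53 overlapping reads. Among well-covered members, Hist1h2ae and Hist1h2bg had 1.86 (1.70 to 2.04), Hist1h1c 1.86 (1.70 to 2.04) and Hist1h4i 1.75 (1.60 to 1.93). The lowest ratio was that of Hist3h2ba, 0.919 (0.727 to 1.16), where the counting interval included 1.

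Members no more than 100 kb apart were joined, with 5 kb on each side, into 7 blocks of 495759 bases in all. Intervals covered 14.8% of the blocks in Ctrl, 15.7% after Oxali, 16.6% after Cispl, 15.3% after IFNγ and 16.6% after Oxali + IFNγ. The whole genome was covered to 2.15, 2.83, 3.17, 2.15 and 3.20%, so the blocks stood 6.85-, 5.56-, 5.25-, 7.12- and 5.18-fold above it. Against Ctrl, block coverage was 1.06-, 1.13-, 1.04- and 1.12-fold, and genome coverage 1.31-, 1.47-, 0.998- and 1.48-fold. As a fold of Ctrl, block coverage thus moved less than that of the genome under Oxali, Cispl and Oxali + IFNγ. In percent of bases covered the blocks rose more, from a higher start, so the order depends on the scale.

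**Figure D5:**
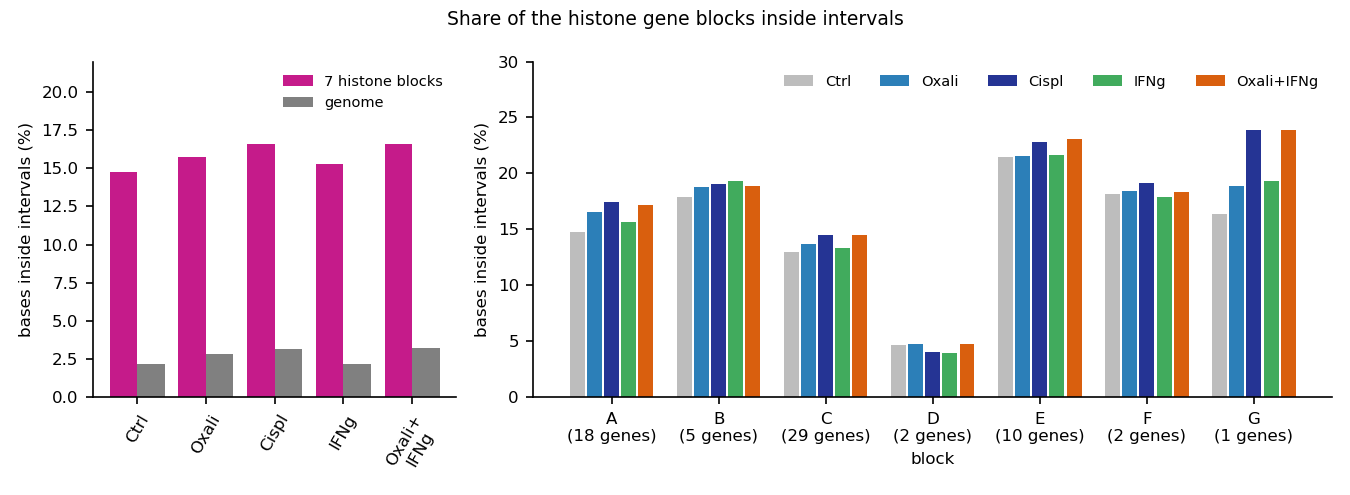
Percent of bases inside intervals (y axis) in the 5 lists, for the 7 histone gene blocks together beside the genome (left) and for each block (right, A to D Hist1, E Hist2, F Hist3, G Hist4h4). The block of Hist4h4 runs from 16.4% in Ctrl to 23.9% after Cispl and Oxali + IFNγ, and the block of the testis pair stays below 5%.

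The largest block, with 29 Hist1 genes (chr13:23526050-23769406), was covered to 13.0% in Ctrl and 14.5% after Oxali + IFNγ, and the next, with 18 (chr13:21710763-21842530), to 14.8 and 17.2%. The block of the testis pair was covered to between 3.97 and 4.77% in the 5 lists. The Hist2 block on chromosome 3 lay between 21.5% (Ctrl) and 23.0% (Oxali + IFNγ) and the Hist3 block on chromosome 11 between 17.9% (IFNγ) and 19.1% (Cispl). The block around Hist4h4 went from 16.4% in Ctrl to 18.8% after Oxali, 19.3% after IFNγ and 23.9% after both Cispl and Oxali + IFNγ.

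Within the blocks, and over intervals with q at most 0.01, those of a treated list with no overlap in Ctrl numbered 18 of 112 after Oxali (16.1%, all such intervals of the list 32.5%), 25 of 122 after Cispl (20.5%, 37.3%), 7 of 102 after IFNγ (6.86%, 12.9%) and 19 of 111 after Oxali + IFNγ (17.1%, 38.4%). Ctrl intervals with no overlap in the treated list numbered 6 of 102 after Oxali (5.88%, all such Ctrl intervals 9.11%), 1 after Cispl (0.980%, 5.9%), 5 after IFNγ (4.90%, 15.8%) and 4 after Oxali + IFNγ (3.92%, 7.59%). By overlap, both shares were below those of the genome in every comparison. Most of the gained regions lay close to a Ctrl interval, and counting an interval within 500 bases as shared left 5 after Oxali (4.46%, all such intervals of the list 26.3%), 6 after Cispl (4.92%, 28.4%), 1 after IFNγ (0.980%, 7.93%) and 4 after Oxali + IFNγ (3.60%, 32.0%). The same rule left 2 lost after Oxali (1.96%, all such Ctrl intervals 6.67%), 1 after Cispl (0.980%, 4.36%), 3 after IFNγ (2.94%, 12.5%) and 1 after Oxali + IFNγ (0.980%, 5.54%).

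Of the regions absent from Ctrl, 2 are shown as mm10 sequence on the + strand. They are examples of a region in the platinum lists and one in all treated lists, patterns that other regions shared. The first lies in an intron of the long Hist1h2be model, 5313 bases from the nearest member start, with pileups of 227 after Oxali, 240 after Cispl and 277 after Oxali + IFNγ and no interval in Ctrl or IFNγ. The second lies 601 bases from the nearest member start, upstream of Hist4h4 and within 500 bases of the Ctrl interval over that start, with 319 after Oxali, 413 after Cispl, 262 after IFNγ and 399 after Oxali + IFNγ. Capitals mark CCAAT read on the opposite strand, the only word found in either.
Gained in Hist1h2be (chr13:23586911-23587121): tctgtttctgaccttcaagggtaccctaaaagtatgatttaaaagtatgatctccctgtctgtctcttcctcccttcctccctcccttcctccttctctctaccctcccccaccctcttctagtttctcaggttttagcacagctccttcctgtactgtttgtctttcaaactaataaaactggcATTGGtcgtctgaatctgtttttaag
Gained upstream of Hist4h4 (chr6:136805016-136805208): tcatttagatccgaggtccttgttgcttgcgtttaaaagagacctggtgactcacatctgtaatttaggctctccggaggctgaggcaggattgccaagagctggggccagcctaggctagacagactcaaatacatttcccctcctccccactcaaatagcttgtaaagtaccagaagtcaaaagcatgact
The GC content of the 2 regions was 44.1 and 48.2%. Other regions absent from Ctrl lay at Hist1h2bq and Hist1h2br after Cispl (342 and 316) and Oxali + IFNγ (395 and 425), and at Hist1h4a with 352 after Oxali, 310 after Cispl and 375 after Oxali + IFNγ. A region near Hist1h2bh had 251 after Oxali, 307 after Cispl and 305 after Oxali + IFNγ. Another in the Hist2 block had 216 after Oxali, 343 after Cispl, 198 after IFNγ and 260 after Oxali + IFNγ. Of the 50-base words around the starts of Hist1h2bq and Hist1h2br, 100% occur elsewhere in the genome, so the regions at these genes and their pileups are uncertain.

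Genes that work with the histone clusters were set beside them. The 11 replication-independent histone genes, which supply variants such as H3.3 and H2A.Z outside S phase, had 10 called members with median ratios of 0.663 after Oxali, 0.577 after Cispl, 0.696 after IFNγ and 0.480 after Oxali + IFNγ. Of these, 5, 7, 4 and 10 were lower past the fold, where all genes gave 32.3, 58.1, 44.8 and 70.8%. Factors of histone transcription (13 of 14 called in all lists) had 0.617, 0.543, 0.695 and 0.470, with 9, 12, 5 and 13 lower. Histone mRNA processing factors (15 of 16) had 0.721, 0.621, 0.665 and 0.488, with 5, 10, 8 and 15 lower, and histone chaperones (9 of 9) had 0.667, 0.549, 0.729 and 0.503, with 5, 7, 3 and 9 lower. No gene of the 4 lists was higher past the fold under any treatment. With the all-gene median at 1, the 4 list medians lay between 0.848 and 0.991 after Oxali, between 0.852 and 0.976 after Cispl, between 0.975 and 1.07 after IFNγ and between 0.871 and 0.932 after Oxali + IFNγ. In Oxali + IFNγ the lowest were Rbbp4, a subunit of the chaperone CAF-1, at 0.299, Upf1, a helicase of histone mRNA decay, at 0.311, Ccne1, the cyclin whose kinase acts on the histone gene activator NPAT, at 0.325, and Chaf1b, another CAF-1 subunit, at 0.327. H2afz, the H2A.Z gene, was at 0.366.

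Markers of prostate epithelium were called for 5, 5, 4, 5 and 4 of 8 genes in the 5 lists, and markers of other cell types for 2, 2, 4, 1 and 3 of 9. The leukocyte and endothelial markers Ptprc, Cd3e and Cdh5 had no interval in any list. The myeloid genes Lyz2 (levels of 4.03 to 5.06 in 3 lists) and Adgre1 (2.18 after Cispl) and the endothelial gene Pecam1 (2.39 to 2.98 in 3 lists) were called at low levels, and Col1a1, a collagen gene of fibroblasts, had levels of 28.4 to 49.9 in the 5 lists. The number of intervals, with peaks of the same start and end joined, was 122298 in Ctrl, 158621 after Oxali, 174048 after Cispl, 118949 after IFNγ and 174709 after Oxali + IFNγ, and the part of these differences in the ratios was not tested.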

How the data were processed

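ATAC-seq peak lists from 5 groups of Myc-CaP cells were used, each made by the authors from 2 pooled libraries. Per the study's methods, the authors trimmed reads with cutadapt, aligned them to mm10 with Bowtie2 2.2.8, removed low-quality, duplicate and mitochondrial reads with SAMtools and Picard, called peaks with MACS2 2.1.0 without a control and removed blacklisted regions. The deposited columns used hold the fold enrichment (a ratio to local background), the −log10 p-value, the −log10 q-value and the summit offset. The deposited score column was not used. The Cispl list ends at a higher −log10 p (2.99) than the others (2.00), which affects weak intervals.

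The integer pileup at each summit and the local background were recovered from the deposited fold and −log10 p-value, under the Poisson model of the caller, for 100% of peaks. The lowest common local background of a list was taken as its genome-wide value, so the level corrects for depth. Peaks of the same start and end were joined, and 2 libraries per list could not be separated, so the lists hold no replicate error. Ratios carry exact (Clopper-Pearson) 95% intervals for counting error only. Called members, levels, ratios to Ctrl, a fold of 1.5 and block coverage were computed in Python 3.11.15 with numpy 2.4.6, pandas 2.3.3 and scipy 1.17.1, and the recovery was tested on simulated data. The rule for named members took the 5 highest and 5 lowest Ctrl levels, the 3 highest and 3 lowest ratios of each treatment, uncalled members and testis genes, and for other lists the extremes. Other members named in the text, such as Hist1h4i, Hist4h4, Hist1h1e, Hist1h2be and Hist1h2bc, were chosen after their values were seen, as were the shown regions and the comparison of Oxali with Cispl. Gene names and coordinates came from GENCODE M21 and sequences from RefSeq GRCm38. The members and lists were chosen with earlier results of these data known. Other windows, q-value and fold thresholds, scalings and definitions of shared intervals were tried. Read length is not given in the sources used here, and the study's methods give only a minimum number of read pairs per library, so the genome-wide background stands for depth.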

Additional observations from a re-analysis of the deposited data

How the results depend on the processing

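No paired analysis was possible because both libraries of each group were pooled before peaks were called, so no library could be left out either. Calls of members held under each threshold and annotation tried, at 65 in every list. With a window of 500 bases they were 64 after Cispl and after IFNγ and 65 in the other lists. The median log2 ratio of members to Ctrl, −0.22 after Oxali, −0.64 after Cispl, −0.38 after IFNγ and −0.51 after Oxali + IFNγ, changed sign when the all-gene median was set to 1 (0.24, 0.0095, 0.17 and 0.38) and when genes of like Ctrl level were set to 1, an alternative chosen after seeing the data (0.32, 0.083, 0.24 and 0.49). In unique windows it was −0.073 after Oxali and −0.39 after Oxali + IFNγ, and over distinct merged regions −0.52 after Cispl and −0.39 after Oxali + IFNγ. The Oxali to Cispl median log2 ratio of 0.46 became 0.26 with the all-gene median at 1, and the members past the fold 6 in place of 18, an alternative chosen after seeing the data.

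Counts past the fold changed as follows. Higher after Oxali (2) became 0 at a fold of 2, 8 with the all-gene median at 1 and 0 in unique windows, and lower after Oxali (0) became 1 with a window of 500 bases. Lower after Cispl (41) became 3 at a fold of 2, 0 with the all-gene median at 1 and 3 of 5 in unique windows, where only 5 called members were counted and the share was about that of 41 of 65. Lower after IFNγ (3) became 0 under each of these, lower after Oxali + IFNγ (25) became 0, 0 and 1, and higher after Oxali + IFNγ (0) became 17 with the all-gene median at 1. Block coverage in the 5 lists, in the order Ctrl, Oxali, Cispl, IFNγ, Oxali + IFNγ, was 14.6, 15.5, 16.4, 15.0 and 16.4% with q at most 1e-05, and 15.9, 16.8, 17.5, 16.4 and 17.6% without flanks. Counting an interval within 500 bases as shared left 5, 6, 1 and 4 gained regions in the 4 comparisons (genome 26.3, 28.4, 7.93 and 32.0% of intervals), and 2 lost after Oxali (6.67%), 3 after IFNγ (12.5%) and 1 after Oxali + IFNγ (5.54%). With the stricter intervals 0 were lost after Cispl and 3 after IFNγ. Leaving out members whose highest intervals in Ctrl and the treated list do not overlap, an alternative chosen after seeing the data, moved no median or count by over 1.5 times. The causes of the other changes were not tested. Depth limits the testis pair and Hist3h2ba, with pileups of 53 to 191.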
